A study of Homo sapiens with 4 samples.

Results

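The set described here comprised 32 genes of cholesterol synthesis, uptake and efflux, chosen by name and grouped by the step at which each product acts. They were read from RNA sequencing of U251 and U87, established human glioblastoma cell lines, in which 58735 genes were listed. The study compared Control cells with cells given Bru at its IC50 for 48 h, where Bru is brusatol, a plant-derived triterpenoid. One library was made for each of the 4 conditions, U251 Control, U251 Bru, U87 Control and U87 Bru, and the study describes its Control cells in other assays as given the solvent DMSO alone. Per the study's methods the cells were grown in medium with fetal bovine serum, which brings lipoprotein cholesterol to them. With 1 library per condition no difference between Control and Bru has a replicate check. The 95% intervals in parentheses after the ratios use the reads without a pseudocount, and for the same reason cover counting error only. The reads carried no molecular identifiers, so copies of the same fragment count as separate reads and the intervals may be too narrow. Levels are FPKM, fragment counts scaled by exon length and by a library size that differs somewhat from the summed reads. A ratio is log2 of FPKM plus 0.1 in Bru over FPKM plus 0.1 in Control. Of the 32 genes, 31 reached a mean FPKM of 1 over the 4 libraries, as did 12949 of all genes, and these are the genes called measured in every count below.

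Cholesterol is built from acetyl-CoA by way of mevalonate, isoprenoid diphosphates, squalene and lanosterol, and in the brain glial cells are a main site of this synthesis. The enzymes are transcribed under SREBP-2, the product of SREBF2, which the escort protein SCAP carries to the Golgi for cleavage when sterols in the endoplasmic reticulum are low, while the INSIG proteins hold the complex back when sterols are high. Oxysterols act in the other direction through the nuclear receptors LXR-alpha (NR1H3) and LXR-beta (NR1H2), which drive the cholesterol exporters ABCA1 and ABCG1 and the ubiquitin ligase MYLIP.

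Depth was similar in the 4 libraries, with 17083896 to 21453561 reads recovered from the FPKM values, and 3 reads on a gene of 1 kb were worth an FPKM of 0.143 to 0.172. The cholesterol genes took 0.248% and 0.160% of the reads in Control and Bru of U251, and 0.293% and 0.209% in those of U87. Of 7 glial markers, VIM and CD44 were high in every library. SOX2 stood at 129 and 91.2 in Control and Bru of U251 but had 0 and 2 reads in those of U87, and S100B had 9 reads in U251 Control and 0 elsewhere. NES was also unequal, at 125 and 50.6 in Control and Bru of U251 and 1.46 and 0.569 in those of U87, GFAP did not pass 2.42 and OLIG2 did not pass 1.05 in any library, and the summed level of the 7 markers ran from 744 to 1083. The summed level of 5 markers of leukocytes, endothelium and epithelium was 0.0407 to 1.33, with CD3E at 0 reads throughout. The part of the glial markers' change in the results below was not tested.

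The cholesterol genes as a set were lower in Bru than in Control in both lines. They were chosen with earlier results of these data known, so their counts beside all measured genes are a description and not a test. Each library averages over a culture, so a smaller share of cells with a transcript and less of it per cell cannot be told apart. Their median ratio was -0.57 in U251 and -0.60 in U87, against -0.03 and -0.04 for all measured genes. In U251 6 of 31 were lower by more than 2-fold, where 5.44% of all measured genes were, and in U87 5 of 31, where 1.41% were. The genes past 2-fold in both lines were 4, namely HMGCS1, MSMO1, DHCR7 and INSIG1, against 0.517% of all measured genes. A single member, ABCA1, was higher by more than 2-fold in U251, where 3.36% of all measured genes were, and 0 were in U87, where 1.92% were. At a fold of 1.5, 15 members were lower in U251 and 17 in U87, with backgrounds of 15.6% and 4.49%, and 10 were lower in both, with a background of 2.17%. At the same fold 1 member was higher in U251, 0 in U87 and 0 in both, with backgrounds of 11.3%, 4.56% and 1.38%.

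In direction alone, 24 of 31 members were lower in Bru in U251 and 26 in U87, where 52.1% and 56.7% of all measured genes were. Higher in Bru were 7 and 5, where 47.2% and 42.3% of all measured genes were. Both lines gave a lower value for 23 members (37.5% of all measured genes) and a higher value for 4 (28.1%), and the lines were opposite for 4 (32.6%). The counting interval lay below 0 for 23 of 31 members in U251 and 24 in U87, where it did for 35.9% and 28% of all measured genes. It lay above 0 for 6 and 2 members (30.9% and 15.7% of all measured genes) and included 0 for 2 and 5. The split by role was uneven. The 18 synthesis enzymes had medians of -0.70 and -0.73, with 16 and 17 of them lower, and the 13 measured members outside synthesis had medians of -0.26 and -0.30, with 8 and 9 lower.

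**Figure D1:**
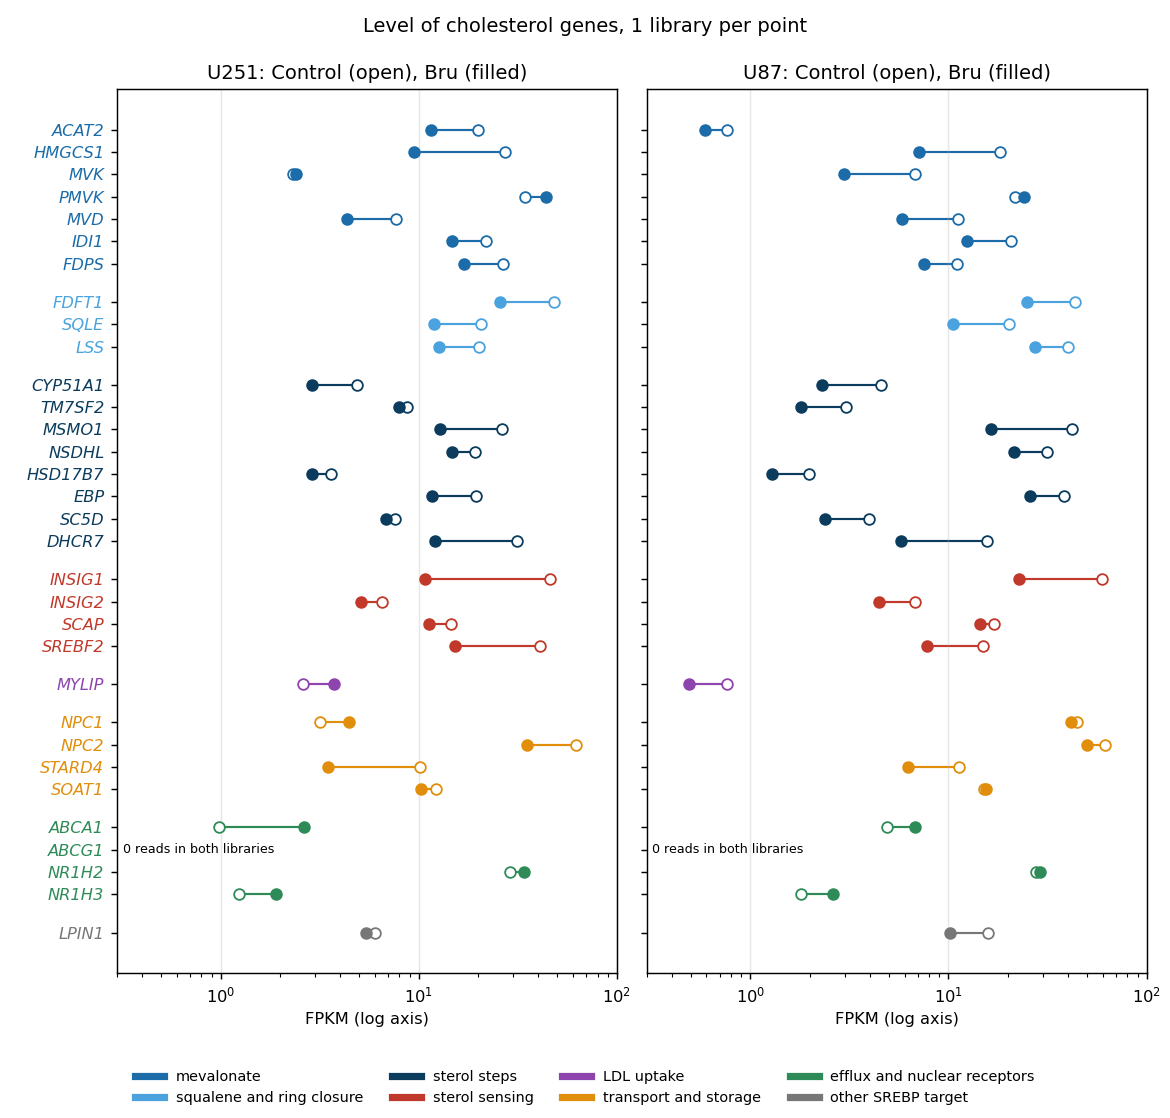
FPKM of each cholesterol gene on a log axis in U251 (left) and U87 (right), with the Control library as an open point, the Bru library as a filled point and colour for the step of the pathway. The filled point lies to the left for 16 of 18 synthesis enzymes in U251 and 17 of 18 in U87, and to the right for ABCA1, NR1H2 and NR1H3 in both lines.

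For the genes that were lower by more than 2-fold in both lines, the promoter stretches upstream of RefSeq starts are printed here. HMGCS1 and DHCR7 have 2 each, for different starts. The stretches come from the RefSeq promoter table (GRCh38.p14), on the strand of the gene and 5′ to 3′, cut back so that no exon of a protein-coding gene is included. SREBF2, which encodes the activator, and ABCA1, the exporter that was higher, are printed beside them. Capitals mark CCAAT, the letters bound by NF-Y, read on either strand and so also as ATTGG, and the sterol response element letters TCACNCCAC, read on either strand.
HMGCS1, chr5:43313513-43313662, minus strand: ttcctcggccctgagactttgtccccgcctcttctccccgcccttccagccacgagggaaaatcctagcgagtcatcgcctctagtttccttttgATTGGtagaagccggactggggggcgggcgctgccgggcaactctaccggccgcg
HMGCS1, chr5:43313225-43313355, minus strand: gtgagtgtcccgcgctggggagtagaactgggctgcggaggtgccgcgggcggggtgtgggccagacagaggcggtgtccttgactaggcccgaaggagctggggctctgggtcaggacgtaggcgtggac
DHCR7, chr11:71448436-71448643, minus strand: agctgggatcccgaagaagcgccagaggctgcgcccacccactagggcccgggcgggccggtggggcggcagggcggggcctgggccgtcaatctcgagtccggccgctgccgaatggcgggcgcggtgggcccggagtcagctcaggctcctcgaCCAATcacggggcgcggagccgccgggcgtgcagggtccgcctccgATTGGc
DHCR7, chr11:71449044-71449293, minus strand: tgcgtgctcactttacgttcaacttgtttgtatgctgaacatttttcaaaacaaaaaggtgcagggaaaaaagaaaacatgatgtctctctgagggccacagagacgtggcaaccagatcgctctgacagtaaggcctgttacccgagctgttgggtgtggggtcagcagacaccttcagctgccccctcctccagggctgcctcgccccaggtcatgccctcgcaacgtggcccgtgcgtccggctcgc
MSMO1, chr4:165327419-165327622, plus strand: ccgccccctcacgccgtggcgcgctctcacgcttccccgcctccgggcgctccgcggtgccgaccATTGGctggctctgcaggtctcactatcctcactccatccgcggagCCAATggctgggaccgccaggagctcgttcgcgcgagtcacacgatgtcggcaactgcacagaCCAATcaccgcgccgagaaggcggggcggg
INSIG1, chr7:155297628-155297775, plus strand: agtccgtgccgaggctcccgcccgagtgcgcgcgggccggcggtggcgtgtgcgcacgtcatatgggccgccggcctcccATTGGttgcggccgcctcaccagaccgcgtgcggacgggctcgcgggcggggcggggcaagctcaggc
SREBF2, chr22:41832855-41833078, plus strand: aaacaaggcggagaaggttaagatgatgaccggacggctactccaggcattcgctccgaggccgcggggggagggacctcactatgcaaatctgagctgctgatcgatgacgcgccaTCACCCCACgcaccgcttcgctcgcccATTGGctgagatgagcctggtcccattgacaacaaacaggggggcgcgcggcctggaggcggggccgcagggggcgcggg
ABCA1, chr9:104928238-104928405, minus strand: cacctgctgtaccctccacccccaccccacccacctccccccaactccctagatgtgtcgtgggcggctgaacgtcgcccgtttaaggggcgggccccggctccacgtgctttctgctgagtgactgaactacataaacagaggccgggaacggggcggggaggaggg

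The stretch of MSMO1 held CCAAT at 3 places and those of INSIG1 and SREBF2 at 1 each, while the stretch of ABCA1 held it at 0. Of the 2 stretches of DHCR7 the one held it at 2 places and the other at 0, and of the 2 of HMGCS1 the one held it at 1 place and the other at 0. Bases cut away next to the start are not in these counts. They were 102 in INSIG1, 82 in ABCA1, 46 in MSMO1, 26 in SREBF2, 100 and 43 in HMGCS1 and 42 and 0 in DHCR7. Among them a further CCAAT began 34 bases before the start of MSMO1 and 100 before a start of HMGCS1. The second stretch printed for HMGCS1 was also cut at its end away from the start. That stretch and both of DHCR7 lie inside the coordinates given below for these genes. The window searched was the 250 bases before a RefSeq start, and bases after the start were not searched. Such a window was held for 28 of the 32 members, and not for ABCG1, ACAT2, FDFT1 and SQLE. These 28 had 40 windows, and a gene was counted for a motif if any of its windows held it, for members and for all genes alike. CCAAT was present in 20 of the 28 (71.4%), in 13 of 15 synthesis enzymes (86.7%) and in 7 of 13 other members (53.8%), where 37.0% of all 27305 genes with a window, expressed or not, held it. The Sp1 letters GGGCGG, on either strand, were in 27 of 28 members (96.4%), with NSDHL as the exception, against 46.2% of all. TCACNCCAC was found in SREBF2 alone among the members, at 1 of 28 against 1.09% of all, and the LXR letters, AGGTCA and the same again after 4 bases, in 0 of 28 against 0.0183%. The 4 motifs were counted separately, and sites that overlapped were kept in both counts. A match is a description of the letters, and a window without a match says only that these letters were not in it.

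In the mevalonate steps, which lead from acetyl-CoA to farnesyl diphosphate, HMGCS1 had the lowest ratio in both lines and PMVK was higher in both. The 7 genes had a median ratio of -0.65 in U251 and -0.73 in U87, and their summed FPKM in Bru was 73.6% and 67.0% of that in Control. HMGCS1 (ENSG00000112972, chr5:43289395-43313512), which condenses acetoacetyl-CoA with acetyl-CoA, stood at an FPKM of 27.4 and 9.44 in Control and Bru of U251 and 18.1 and 7.06 in those of U87. Both Bru libraries were below both Control libraries, at 34.5% and 38.9% of their own Control. The ratio was -1.52 in U251 (interval -1.65 to -1.42) and -1.35 in U87 (-1.50 to -1.22), and 1.81% and 0.772% of measured genes had a lower one. The interval of the difference between the lines, -0.01 to 0.35, included 0. A non-coding gene on the opposite strand, AC114947.2, covers 15.0% of the exonic length of HMGCS1 and had 11 reads or fewer in every library.

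MVK, the kinase that phosphorylates mevalonate, differed more between the lines than any other member. Its FPKM was 2.32 and 2.41 in Control and Bru of U251 and 6.76 and 2.96 in those of U87. U87 Control thus stood above the other 3 libraries, which were close to each other. The ratio was 0.05 in U251 (-0.18 to 0.29) and -1.16 in U87 (-1.38 to -1.01), and the difference, U87 minus U251, was -1.25 without the pseudocount (-1.55 to -0.94). MMAB, on the opposite strand, covers 4.72% of the exonic length of MVK. It had 295 and 220 reads in Control and Bru of U251 and 700 and 439 in those of U87. PMVK, the next kinase, had an FPKM of 34.3 and 43.7 in Control and Bru of U251 and 21.7 and 24.1 in those of U87, with ratios of 0.35 (0.22 to 0.48) and 0.15 (-0.03 to 0.33). No other synthesis enzyme was higher in Bru in both lines, and in U87 the interval of PMVK included 0.

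MVD, the decarboxylase that yields isopentenyl diphosphate, had an FPKM of 7.68 and 4.32 in Control and Bru of U251 and 11.1 and 5.86 in those of U87, and ratios of -0.81 and -0.92. IDI1, the isomerase that follows, gave -0.57 and -0.73, and FDPS, the farnesyl diphosphate synthase, -0.65 and -0.56, with intervals below 0 in both lines. RUSC1-AS1, on the opposite strand, covers 18.6% of the exonic length of FDPS. It had 274 and 131 reads in Control and Bru of U251 and 78 and 56 in those of U87. ACAT2, the cytosolic thiolase at the start of the route, was abundant in U251 but not in U87, at 19.9 and 11.5 in Control and Bru of U251 against 0.759 and 0.588 in those of U87. It was 26.2-fold higher in U251 Control than in U87 Control. The ratio of ACAT2 was -0.79 in U251, and in U87 it was -0.32 on 59 and 44 reads, with an interval from -0.97 to 0.22. Of the exonic length of ACAT2, 52.3% overlaps genes on the opposite strand, and the library kit named in the labels does not mark strand, so reads of the 2 strands cannot be told apart.

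The enzymes that make squalene and close the ring, FDFT1, SQLE and LSS, were all below Control in both lines, where 37.5% of all measured genes were. Their medians were -0.78 and -0.80. FDFT1 (ENSG00000079459), squalene synthase and the first enzyme committed to sterols, was the most abundant synthesis enzyme in both Control groups, at an FPKM of 48.2 in U251 and 43.5 in U87, and stood at 25.7 and 25.0 in Bru. SQLE, squalene epoxidase, had 20.5 and 11.9 in Control and Bru of U251 and 20.1 and 10.6 in those of U87. For FDFT1 and SQLE the lines were close to each other in Control and again in Bru. LSS, which forms lanosterol, had an FPKM of 20.2 and 12.6 in Control and Bru of U251 and 40.0 and 27.3 in those of U87. The ratios of FDFT1, SQLE and LSS were -0.91, -0.78 and -0.68 in U251 and -0.80, -0.92 and -0.55 in U87.

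Past lanosterol, 8 of 8 enzymes were below Control in both lines, where 37.5% of all measured genes were. Their medians were -0.55 and -0.72 for U251 and U87. DHCR7 (ENSG00000172893, chr11:71428193-71452868), the reductase that forms cholesterol from 7-dehydrocholesterol, had an FPKM of 31.2 and 12.0 in Control and Bru of U251 and 15.7 and 5.75 in those of U87. MSMO1 (ENSG00000052802, chr4:165327623-165343160), the C4-methyl sterol oxidase, stood at 26.2 and 12.8 in Control and Bru of U251 and 42.2 and 16.4 in those of U87. For each of these genes both Bru libraries were below both Control libraries. DHCR7 gave -1.37 (-1.48 to -1.26) and -1.43 (-1.61 to -1.29), the lowest ratio of any member in U87, and the interval of the difference between the lines, -0.27 to 0.12, included 0. MSMO1 gave -1.02 (-1.16 to -0.90) and -1.36 (-1.48 to -1.25), and was lower in U87 by a difference of -0.33 (-0.51 to -0.16). In U251 MSMO1 lay at the 2-fold limit, and it did not pass it with a pseudocount of 1 (-0.97), with the median of all genes set to 0 (-0.99) or with reads scaled by their total (-0.94).

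The other sterol enzymes had ratios nearer to 0. CYP51A1, the lanosterol demethylase, gave -0.73 in U251 and -0.96 in U87 from an FPKM of 4.86 and 2.89 in Control and Bru of U251 and 4.56 and 2.29 in those of U87. That level is uncertain, since 79.4% of the exonic length of CYP51A1 also belongs to AC000120.2 on the same strand, which was given 0 reads in every library. EBP, the sterol isomerase, gave -0.73 and -0.56, and NSDHL, a dehydrogenase of C4 demethylation, -0.37 and -0.55. HSD17B7, a keto-reductase that shares 13.6% of its 50-base stretches with HSD17B7P2, gave -0.32 and -0.59.

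TM7SF2, a sterol C14 reductase, and SC5D, the C5 desaturase, had lower ratios in U87 than in U251. TM7SF2 had an FPKM of 8.72 and 7.95 in Control and Bru of U251 and 3.05 and 1.80 in those of U87. SC5D had an FPKM of 7.60 and 6.86 in Control and Bru of U251 and 3.98 and 2.37 in those of U87. Every U251 library was above every U87 library for both genes, by 2.86-fold for TM7SF2 and 1.91-fold for SC5D in Control. The ratios in U251 were -0.13 for TM7SF2, with an interval of -0.31 to 0.04, and -0.14 for SC5D. In U87 they were -0.73 and -0.72, and the differences between the lines were -0.63 (-1.02 to -0.23) and -0.60 (-0.88 to -0.32).

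**Figure D2:**
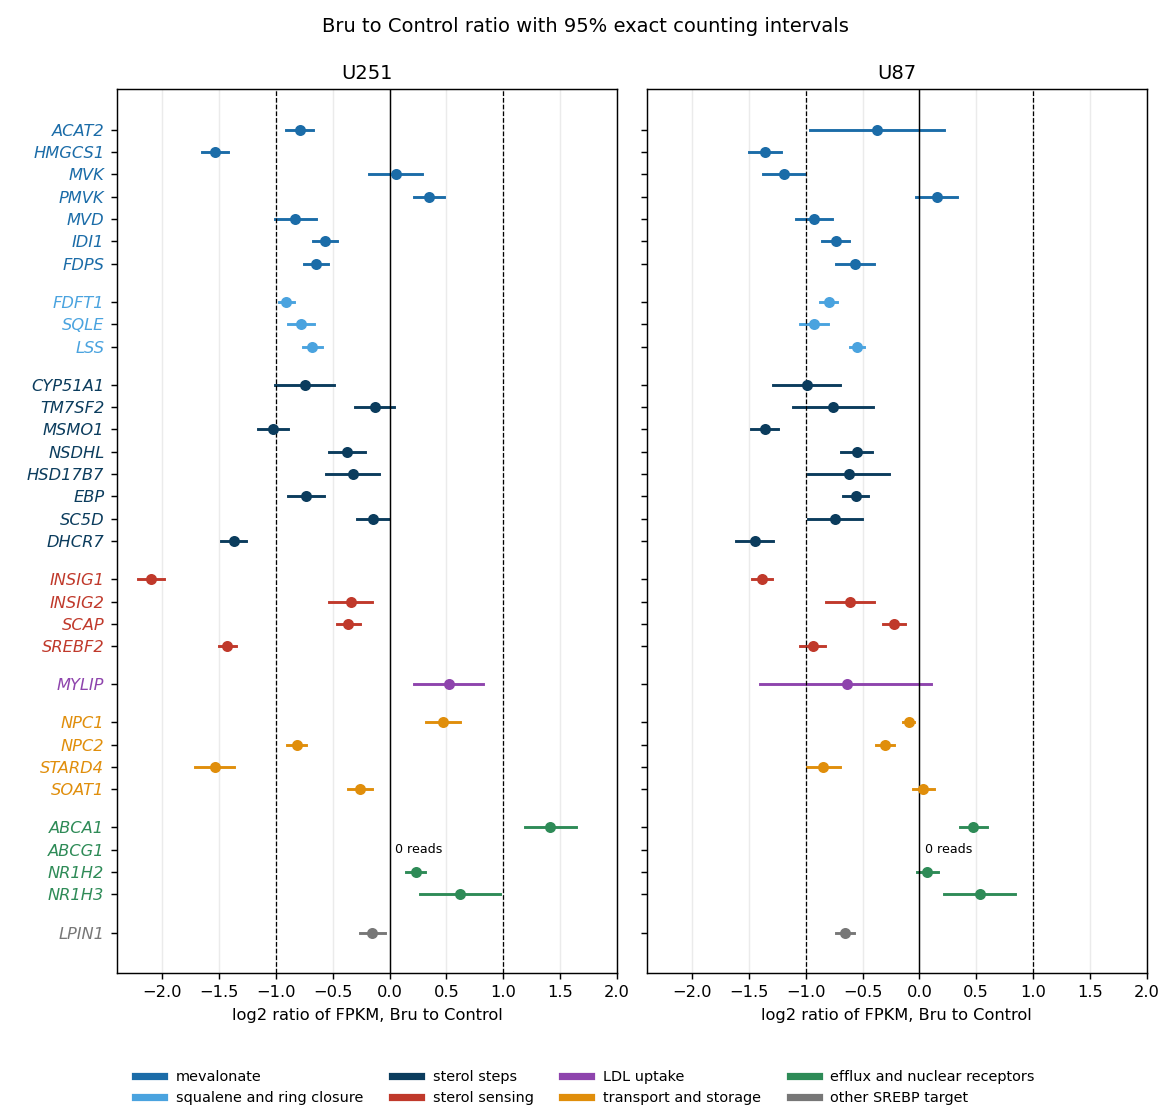
Log2 ratio of FPKM in Bru to Control for each cholesterol gene in U251 (left) and U87 (right), without a pseudocount, with bars for the 95% exact counting interval, dashed lines at 2-fold and colour for the step. The bars of HMGCS1, DHCR7 and INSIG1 lie beyond the lower 2-fold line in both lines, and those of MYLIP and ACAT2 in U87, which had the fewest reads of the genes drawn, are the widest.

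Among the sterol sensors INSIG1 and SREBF2 had the lowest ratios, and INSIG2 and SCAP were nearer to 0. All 4 were below Control in both lines, where 37.5% of all measured genes were. Their medians were -0.89 and -0.77, and their summed FPKM in Bru was 39.2% of Control in U251 and 50.4% in U87. INSIG1 (ENSG00000186480, chr7:155297776-155310235), which retains SCAP in the endoplasmic reticulum and is itself transcribed under SREBP-2, had an FPKM of 45.9 and 10.7 in Control and Bru of U251 and 59.6 and 22.7 in those of U87. Its Bru libraries were thus at 23.3% and 38.2% of their Control. The ratio of -2.09 in U251 (-2.22 to -1.98) was the lowest of any member, with 0.726% of measured genes below it, and that of -1.39 in U87 (-1.48 to -1.30) had 0.718% below it. The difference between the lines was 0.71 (0.56 to 0.86).

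SREBF2 (ENSG00000198911, chr22:41833079-41907308) had an FPKM of 40.9 and 15.2 in Control and Bru of U251 and 14.9 and 7.75 in those of U87. U251 Control stood apart from the other 3 libraries, and U251 Bru was at the level of U87 Control. The ratio was -1.42 in U251 (-1.50 to -1.36) and -0.93 in U87 (-1.05 to -0.83), a difference of 0.49 (0.35 to 0.62). INSIG2, the INSIG that is not a classical SREBP-2 target, had an FPKM of 6.52 and 5.14 in Control and Bru of U251 and 6.77 and 4.44 in those of U87, with ratios of -0.34 (-0.54 to -0.15) and -0.60 (-0.82 to -0.40). Its intervals lay above those of INSIG1 in both lines. SCAP, the sterol-sensing escort, gave -0.36 and -0.22 from an FPKM of 14.5 and 11.2 in Control and Bru of U251 and 16.9 and 14.5 in those of U87.

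MYLIP, the ligase that marks lipoprotein receptors for degradation, was higher in Bru in U251 and lower in U87. Its FPKM was 2.59 and 3.72 in Control and Bru of U251 and 0.766 and 0.492 in those of U87. The ratio was 0.50 in U251 (0.22 to 0.82) and -0.55 in U87, where 42 and 26 reads left an interval of -1.40 to 0.10. A direction in U87 was therefore not detectable at this depth, while the difference between the lines, -1.16 without the pseudocount, had an interval of -1.98 to -0.35.

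Among the genes of cholesterol transport and storage STARD4 had the lowest ratio in both lines, and NPC1 and SOAT1 had opposite signs in U251 and U87. STARD4, a soluble carrier that moves sterol between membranes and is a target of SREBP-2, had an FPKM of 10.1 and 3.47 in Control and Bru of U251 and 11.2 and 6.26 in those of U87. The Control libraries were within 1.11-fold of each other, while U251 Bru was below U87 Bru. The ratios were -1.51 (-1.71 to -1.37) and -0.83 (-0.99 to -0.70), a difference of 0.70 (0.47 to 0.92). NPC2, which binds cholesterol in the lysosome, had an FPKM of 62.3 and 35.4 in Control and Bru of U251 and 61.4 and 49.8 in those of U87, with ratios of -0.81 (-0.90 to -0.73) and -0.30 (-0.38 to -0.22). It was the most abundant member in all libraries except U251 Bru, where PMVK was.

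NPC1, the lysosomal membrane protein that takes cholesterol from NPC2, was 13.9-fold higher in U87 Control than in U251 Control. Its FPKM was 3.19 and 4.42 in Control and Bru of U251 and 44.4 and 41.6 in those of U87. Bru was higher in U251, at 0.46 (0.32 to 0.62), and slightly lower in U87, at -0.09 (-0.14 to -0.05). RMC1, on the opposite strand, covers 5.98% of the exonic length of NPC1. It had 259 and 304 reads in Control and Bru of U251 and 984 and 908 in those of U87, where NPC1 had 676 and 828, and 8112 and 7318. SOAT1, which esterifies cholesterol for storage, had 12.2 and 10.2 in Control and Bru of U251 and 15.1 and 15.4 in those of U87. Its ratio was -0.26 in U251 (-0.36 to -0.16) and 0.03 in U87, with an interval of -0.06 to 0.13. NPC1 and NPC2, which act in the same step, thus had ratios of opposite sign in U251.

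The exporter ABCA1 and both LXR genes were higher in Bru in both lines, and ABCG1 was not detected. Of all measured genes 28.1% were higher in both lines. ABCA1 (ENSG00000165029, chr9:104781002-104928237), which passes cholesterol to lipid-poor apolipoprotein, had an FPKM of 0.987 and 2.63 in Control and Bru of U251 and 4.87 and 6.75 in those of U87, on 235 to 1334 reads. Both U87 libraries were above both U251 libraries. The ratio was 1.33 in U251 (1.19 to 1.64 without the pseudocount) and 0.46 in U87 (0.35 to 0.59), a difference of -0.94 (-1.20 to -0.69), and the Bru level was 2.67-fold and 1.39-fold that of Control. With a pseudocount of 1 the ratio in U251 was 0.87 and no longer past 2-fold. ABCG1, the partner exporter, had 0 reads in all 4 libraries, which for its length of 6121 bases allows an FPKM of up to 0.0234 in U251 Control and 0.0282 in U87 Bru (3 reads).

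NR1H3 was at the low end, with an FPKM of 1.24 and 1.90 in Control and Bru of U251 and 1.81 and 2.61 in those of U87. The ratios of 0.58 (0.27 to 0.97) and 0.51 (0.22 to 0.85) rested on 118 to 206 reads per library. ACP2, on the opposite strand, covers 4.17% of the exonic length of NR1H3. It had 1201 and 695 reads in Control and Bru of U251 and 641 and 561 in those of U87. NR1H2, the LXR found in most tissues, had an FPKM of 28.9 and 34.0 in Control and Bru of U251 and 27.6 and 28.9 in those of U87. It was thus the main LXR gene in every library, with ratios of 0.23 (0.15 to 0.31) and 0.07 (-0.02 to 0.16), the latter with an interval that included 0. LPIN1, a phosphatidate phosphatase whose gene is an SREBP target, had 6.03 and 5.42 in Control and Bru of U251 and 15.9 and 10.1 in those of U87. Its ratio was -0.15 in U251 (-0.26 to -0.04) and -0.65 in U87 (-0.73 to -0.57), a difference of -0.50 (-0.64 to -0.36).

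**Figure D3:**
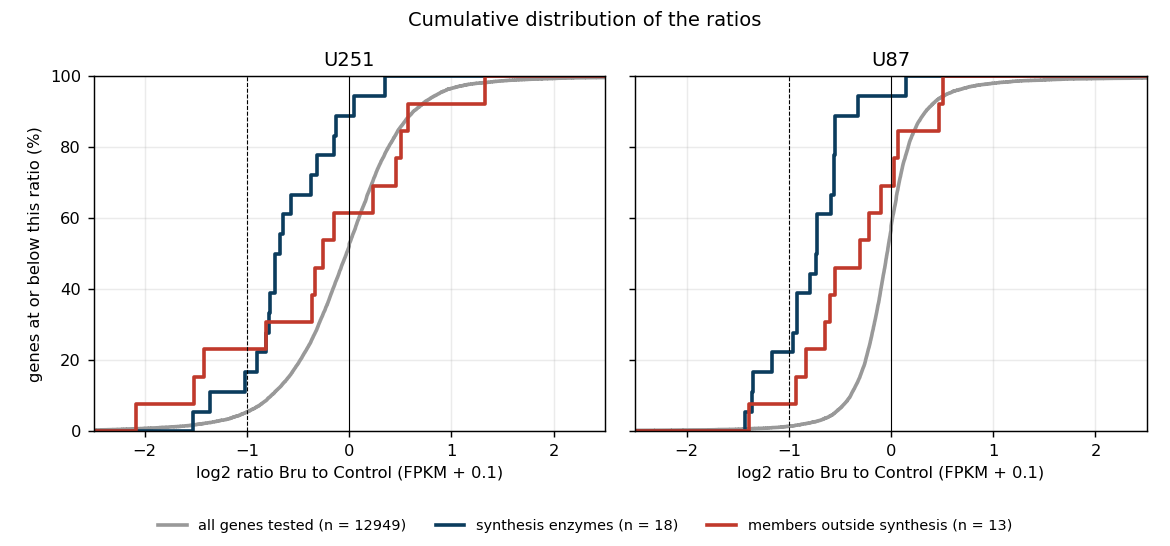
Percent of genes at or below each log2 ratio of Bru to Control (FPKM plus 0.1) in U251 (left) and U87 (right), for all measured genes (grey, n = 12949), the synthesis enzymes (blue, n = 18) and the measured members outside synthesis (red, n = 13), with a dashed line at 2-fold lower. The blue curve passes its middle at -0.70 in U251 and -0.73 in U87 where the grey curve does so at -0.03 and -0.04, and the upper part of the red curve reaches 1.33 in U251 and 0.51 in U87.

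The lines were next set side by side, which is possible without shared controls because each had its own Control library. Over the 31 measured members the ratio in U251 and that in U87 had a Pearson r of 0.768 and a Spearman rho of 0.685, over the 18 synthesis enzymes 0.637 and 0.513, and over all 12949 measured genes 0.225 and 0.398. These describe points that share 4 libraries and are genes, not replicates. The interval of the difference, U87 minus U251, lay below 0 for 10 of 31 members and above 0 for 8, where it did for 25.7% and 24.1% of all measured genes, and included 0 for 13. These shares are near those of all genes and set the members apart in neither direction. Among the 18 synthesis enzymes the numbers below, above and including 0 were 5, 2 and 11, and among the 13 other members 5, 6 and 2. The members that were lower to a greater degree in U251 included INSIG1, SREBF2, STARD4 and NPC2, and those lower to a greater degree in U87 included MVK, TM7SF2, SC5D and LPIN1. For HMGCS1, DHCR7, FDPS, SQLE and MVD the interval of the difference included 0.

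The lines also differed without Bru. In Control 14 of 31 members had an interval higher in U87 and 11 one higher in U251, where 40.1% and 40.9% of all measured genes did, and for 6 the interval included 0. These shares, too, are near those of all genes. Outside synthesis 8 members were higher in U87, 2 in U251 and 3 undecided, and among synthesis enzymes 6, 9 and 3, a difference that was not tested. On the log2 scale of U87 Control over U251 Control the ends were ACAT2 at -4.71 and NPC1 at 3.80, followed by ABCA1 at 2.30, MYLIP at -1.76, MVK at 1.55, TM7SF2 at -1.51 and SREBF2 at -1.46. For FDFT1, SQLE, IDI1, INSIG2, STARD4 and NPC2, by contrast, the Control levels were within 1.11-fold of each other.

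**Figure D4:**
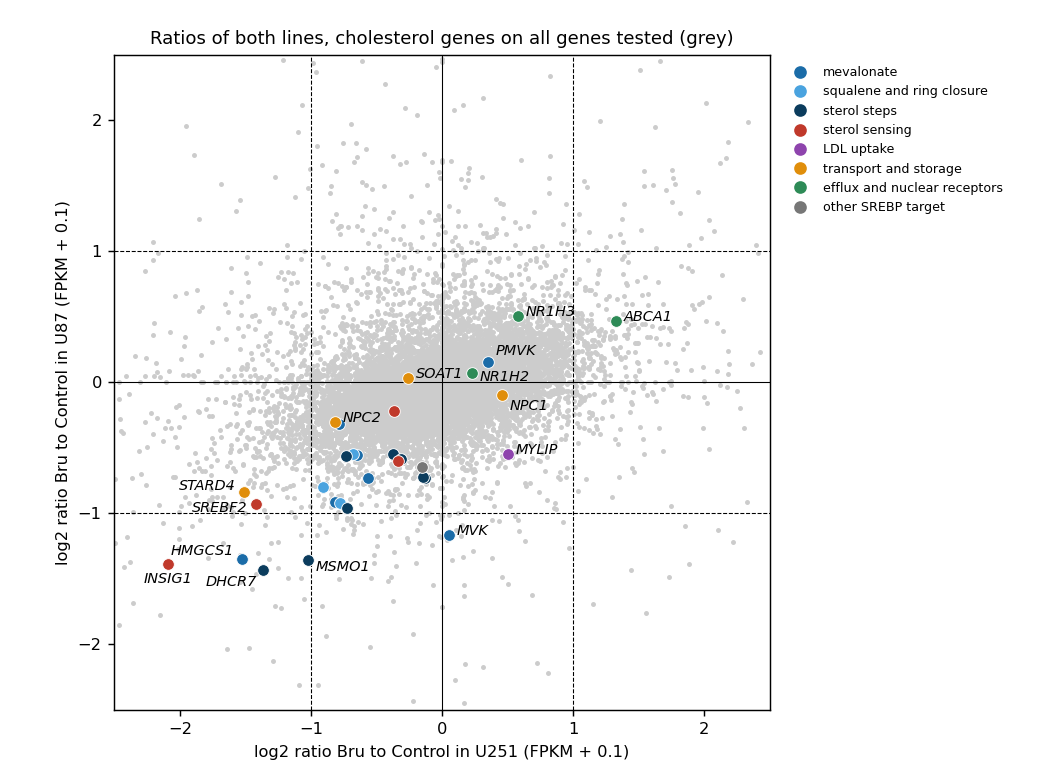
Log2 ratio of Bru to Control (FPKM plus 0.1) in U251 on the horizontal axis and U87 on the vertical axis, with 1 point per gene, cholesterol genes in colour by step, other measured genes in grey and dashed lines at 2-fold. HMGCS1, MSMO1, DHCR7 and INSIG1 lie in the lower left corner past both dashed lines, ABCA1 is at the right, and 156 genes beyond the axes are not drawn.

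Other genes of the same pathway, a list of 40 of which 33 were measured, gave -0.23 and -0.12 as the medians of U251 and U87. Of these, 23 were below and 10 above Control in U251, and 27 and 6 in U87. Of all measured genes 52.1% and 56.7% were below in U251 and U87, and 47.2% and 42.3% above. These counts take any size of change, and the 27 in U87 include a gene with 3 reads in Control and 0 in Bru. More than 2-fold lower were 4 in U251 and 0 in U87. Higher by more than 2-fold was 1 in each line, CH25H in both. The backgrounds are those given above. MBTPS1, the protease that makes the first cut in SREBP-2, had an FPKM of 15.5 and 6.04 in Control and Bru of U251 and 11.1 and 6.81 in those of U87, with ratios of -1.34 and -0.69. RNF145, a sterol-responsive ubiquitin ligase, had 66.2 and 19.4 in Control and Bru of U251 and 27.5 and 17.7 in those of U87, with ratios of -1.77 and -0.64. Both were lower in Bru in both lines and more so in U251, as was SREBF2. More of all measured genes were lower by more than 2-fold in U251 (5.44%) than in U87 (1.41%). By rank SREBF2 was not further out in U251, with 2.22% of measured genes below it there and 1.69% in U87. The lipoprotein receptors LRP8 and LRP1 gave -1.18 and -1.39 in U251 and -0.42 and -0.22 in U87. CH25H, the enzyme that makes 25-hydroxycholesterol, was higher in both lines, at 1.89 and 1.05, on only 6 and 28 reads in U251 and 30 and 63 in U87.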

How the data were processed

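RNA of 4 cultures was sequenced as paired-end reads, and the authors deposited 1 FPKM value per gene and library. Per the labels, the submitters' processing notes name HISAT2 2.0.5, featureCounts 1.5.0-p3, StringTie 1.3.3b, DESeq2 1.16.1 and the build hg18, whereas the gene coordinates in the deposited files equal GENCODE 29 (GRCh38) for 58735 of 58735 genes, and GRCh38 is used here. Whether counting used strand is not given in the sources used here.

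Whole reads were recovered from FPKM and gene length (100% of values within 0.01 of a whole number), with 17083896 to 21453561 per library. The library size inside the FPKM was 20974002 and 18533374 in Control and Bru of U251, where the reads summed to 21453561 and 17847910. In U87 it was 18070193 and 17406238, where they summed to 18260975 and 17083896. Ratios were log2(FPKM + 0.1), which understates the change of low genes, over genes that averaged an FPKM of 1 or more. With 1 library per condition no test across conditions was made. Ratio intervals are exact binomial (Clopper-Pearson) and intervals of differences between lines conditional exact, at 95%, on recovered reads without a pseudocount. Promoters came from RefSeq tables (GRCh38.p14). Tools were Python 3.11.15, numpy 2.4.6, pandas 2.3.3, scipy 1.17.1 and matplotlib 3.10.9.

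The steps were tested on simulated data with known changes that varied by counting error alone, so the spread between cultures was not covered. Of 200 genes changed 4-fold, 195 in U251 and 193 in U87 were found past 2-fold. Of 12749 unchanged genes, 172 and 154 also passed 2-fold. The intervals held the true value for 95.9% and 93.7% of genes checked. All 32 members are named, and otherwise genes that overlap a member or share sequence with it and genes of the list of 40 other pathway genes past 2-fold in either line. Members and lists were chosen with earlier results of these data known. The alternatives were pseudocounts of 1 and 0.01, a mean FPKM of at least 5 or no minimum, and 3 other scalings.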

Additional observations from a re-analysis of the deposited data

Results flagged for a closer look

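For 4 genes the only library pair of U251 and that of U87 gave ratios of opposite sign, and with 1 library per condition the difference between the lines was not tested across samples. The difference of the log2 ratios without the pseudocount, U87 minus U251, was -1.25 for MVK, -1.16 for MYLIP, -0.57 for NPC1 and 0.29 for SOAT1. The U251 ratio of MVK and the U87 ratios of MYLIP and SOAT1 had counting intervals that included 0, so that opposite directions beyond counting error were seen for NPC1 alone. RMC1, which overlaps 5.98% of the exonic length of NPC1 on the opposite strand, was also higher in Bru in U251 and lower in U87. Its part in the reads of NPC1 was not tested. Of all measured genes 32.6% had opposite signs in the lines.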

How the results depend on the processing

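The medians and counts of the members were recomputed under 7 other settings, and no median and no member's ratio changed sign under any of them. Members higher by more than 2-fold in U251 were 1, ABCA1, and became 0 with a pseudocount of 1 and 0 with a mean FPKM of at least 5, which removes ABCA1. The median of the members outside synthesis in U87, -0.30, became -0.45 with a mean FPKM of at least 5. Of 91 recomputed counts and medians 88 stayed within 1.5 times (counts) or within 0.13 in U251 and 0.14 in U87 (medians, the typical reach to either side of a member's interval), and 414 of 422 recomputed ratios stayed within the gene's own counting interval. The median of the members ran from -0.68 to -0.47 in U251 and from -0.65 to -0.53 in U87. The count lower by more than 2-fold ran from 5 to 6 in U251 and from 4 to 5 in U87, where MVK gave -0.97 with a pseudocount of 1. The intervals were not recomputed, so the counts of intervals below or above 0 hold for the scaling as deposited. With reads scaled by their total the U251 ratios of SC5D and LPIN1, -0.14 and -0.15 as reported, were -0.06 and -0.07. No paired analysis was possible because each condition had 1 library, and no library could be left out for the same reason. Depth limited MYLIP and ACAT2 in U87 most, at 26 to 59 reads.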
